A study of Mus musculus with 15 samples.

Results

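A set of 9 genes that mark cortical excitatory neurons by their transmitter or their layer was followed across 3 cell types of the mouse cortex. The genes were Slc17a7, Neurod6, Neurod2, Tbr1, Bcl11b, Foxp2, Cux2, Rorb and Fezf2, which are 9 of the 20610 genes in the deposited table, each found as 1 row by its symbol. They were chosen with values of these libraries in view, including the neuron and astrocyte levels of some of them, so their levels and differences are a description and carry no test. The libraries came from the cortex of wild-type (WT) male mice at postnatal day 28 (P28), with 5 libraries of magnetically isolated neurons, 5 of astrocytes and 5 of microglia, made from polyA RNA. No treatment or mutation separated the groups, and the groups share tissue, age, sex and genotype. Nothing in the labels ties a library to an animal, so every p-value below measures only the spread between libraries. Values are TPM, a gene's share of the transcripts of its own library after allowing for gene length.

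Projection neurons of the neocortex use glutamate, and their layers are told apart by a small network of transcription factors. In textbook accounts Fezf2 and Bcl11b act in neurons of layer 5 that project out of the cortex, Tbr1 and Foxp2 in layer 6, Rorb in layer 4 and Cux2 in the upper layers, while Neurod2 and Neurod6 act in excitatory neurons of all layers. Slc17a7 encodes the vesicular glutamate transporter VGLUT1, which loads glutamate into synaptic vesicles of cortical neurons.

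The promoters of 4 of these genes are shown because the pair Neurod6 and Neurod2 was highest in neurons and the pair Rorb and Fezf2 was highest in astrocytes. They are RefSeq sequences on GRCm38.p6 from 250 bases before to 50 after the annotated start, read 5′ to 3′ on the gene's minus strand. Capitals mark the E-box CANNTG, the core that basic helix-loop-helix factors such as the NeuroD proteins can bind, and both strands read the same in it. They lie at chr6:55681214-55681513 (Neurod6), chr11:98329596-98329895 (Neurod2), chr19:19111147-19111446 (Rorb) and chr14:12345816-12346115 (Fezf2). The Fezf2 window lies inside the longer GENCODE gene at chr14:12342094-12348189, and the other 3 span the 5′ end of their GENCODE genes.
Neurod6: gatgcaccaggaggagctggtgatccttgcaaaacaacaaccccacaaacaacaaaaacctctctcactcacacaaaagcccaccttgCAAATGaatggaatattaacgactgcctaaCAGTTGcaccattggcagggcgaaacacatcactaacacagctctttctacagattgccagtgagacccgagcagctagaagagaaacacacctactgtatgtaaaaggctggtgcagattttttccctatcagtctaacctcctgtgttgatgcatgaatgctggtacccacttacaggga
Neurod2: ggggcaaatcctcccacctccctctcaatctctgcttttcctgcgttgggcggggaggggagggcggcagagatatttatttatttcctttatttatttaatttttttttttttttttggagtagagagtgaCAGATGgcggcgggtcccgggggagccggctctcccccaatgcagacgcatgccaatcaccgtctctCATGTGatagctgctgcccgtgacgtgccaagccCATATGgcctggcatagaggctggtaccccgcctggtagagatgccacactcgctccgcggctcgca
Rorb: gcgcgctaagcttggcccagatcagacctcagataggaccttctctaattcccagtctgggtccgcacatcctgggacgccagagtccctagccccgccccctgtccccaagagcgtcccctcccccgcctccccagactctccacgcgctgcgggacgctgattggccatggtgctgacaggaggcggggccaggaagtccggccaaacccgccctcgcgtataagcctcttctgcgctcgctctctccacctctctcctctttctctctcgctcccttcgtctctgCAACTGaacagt
Fezf2: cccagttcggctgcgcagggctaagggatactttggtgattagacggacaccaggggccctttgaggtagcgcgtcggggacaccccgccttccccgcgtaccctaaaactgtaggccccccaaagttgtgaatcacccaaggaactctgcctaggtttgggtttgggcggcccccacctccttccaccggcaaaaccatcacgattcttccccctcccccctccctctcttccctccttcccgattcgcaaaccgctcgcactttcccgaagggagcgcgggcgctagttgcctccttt

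The Neurod6 window held 2 E-boxes, the Neurod2 window 3, the Rorb window 1 and the Fezf2 window 0, and 72.3% of 32851 RefSeq promoters of the same length held at least 1. The Neurod2 window also held the E-box variant CAGATG, found on either strand in 17.2% of the promoters. The Neurod6 window was 46.3% G or C with 3 CpG sites and the Neurod2 window 55.3% with 16, against 63.7% with 20 for Rorb and 61.3% with 20 for Fezf2. RefSeq holds a second start of Rorb, whose window at chr19:19001068-19001367 was 41.0% G or C with 5 CpG sites and held 3 E-boxes. The median promoter was 52.7% G or C with 7 CpG sites. A match of these letters describes the window and says nothing about binding, and the number of promoters shown is too small to relate composition to level. In the GENCODE vM21 annotation on mm10 all 9 genes were protein-coding and none shared exon sequence with another gene.

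The libraries were checked against marker lists before the genes were read. The sum of 15 pan-neuronal markers was 1481 ± 391 TPM in neuron libraries, 291 ± 89.0 in astrocyte libraries and 114 ± 77.4 in microglia libraries (SD, n = 5 each, here and below). In the neuron libraries 8 endothelial markers summed to 7937 ± 1325 TPM and 7 mural cell markers to 3426 ± 942.5, both above the pan-neuronal sum. Astrocyte markers summed to 128.4 to 323 TPM in neuron libraries, 21350 to 24410 in astrocyte libraries and 303.3 to 688.6 in microglia libraries. Microglia markers summed to 77.2 to 137 TPM in neuron libraries, 169 to 235 in astrocyte libraries and at least 70750 in every microglia library. No marker on any list was at 0 throughout a cell type. Since these are bulk libraries, fewer cells of a type and less RNA per cell cannot be told apart.

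Slc17a7 had the highest mean of the 9 genes in every cell type. It stood at 88.1, 102, 59.3, 57.5 and 122 TPM in neuron libraries 1 to 5, at 19.8, 35.3, 13.2, 15.2 and 32.3 in astrocyte libraries, and at 13.9, 11.8, 1.42, 0.75 and 12.4 in microglia libraries. Every neuron library was above every astrocyte and microglia library, while astrocyte library 3 lay below microglia library 1, so those groups overlapped. The means were 85.7 ± 27.6, 23.2 ± 10.1 and 8.04 ± 6.40 TPM. Differences were taken after adding 1 TPM and taking log2, which shrinks them for genes near 1 TPM. Neurons exceeded astrocytes by 1.88 ± 0.52 and microglia by 3.70 ± 0.52 (difference ± standard error, from a limma fit to all libraries, here and below). Astrocytes exceeded microglia by 1.81 ± 0.52, which became 1.23 and 1.18 under the median-of-ratios and quantile scalings.

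The Slc17a7 level followed library number within cell types. Libraries 3 and 4 were the lowest of their 5 in neurons, astrocytes and microglia alike. Slc17a7 was the only one of the 9 genes with that pattern, which 241 of 13351 tested genes (1.81%) also showed. Of 27 effector genes of excitatory neurons 3 shared it, namely Camk2a, a kinase of the postsynaptic density, Nrgn, the calmodulin-binding protein neurogranin, and Pcp4, a small calmodulin regulator. Mature oligodendrocyte markers moved with the number too, with sums of 8436, 10330, 209.8, 235.8 and 1626 TPM in neuron libraries 1 to 5, 1115, 3803, 626.7, 444.5 and 1283 in astrocyte libraries, and 69440, 51530, 6646, 249.5 and 8131 in microglia libraries. The pan-neuronal sum was lowest in libraries 3 and 4 of astrocytes (192.2 and 233.0 TPM) and of microglia (43.1 and 24.38 TPM), but not of neurons. The part of these markers in the Slc17a7 pattern was not tested.

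**Figure D1:**
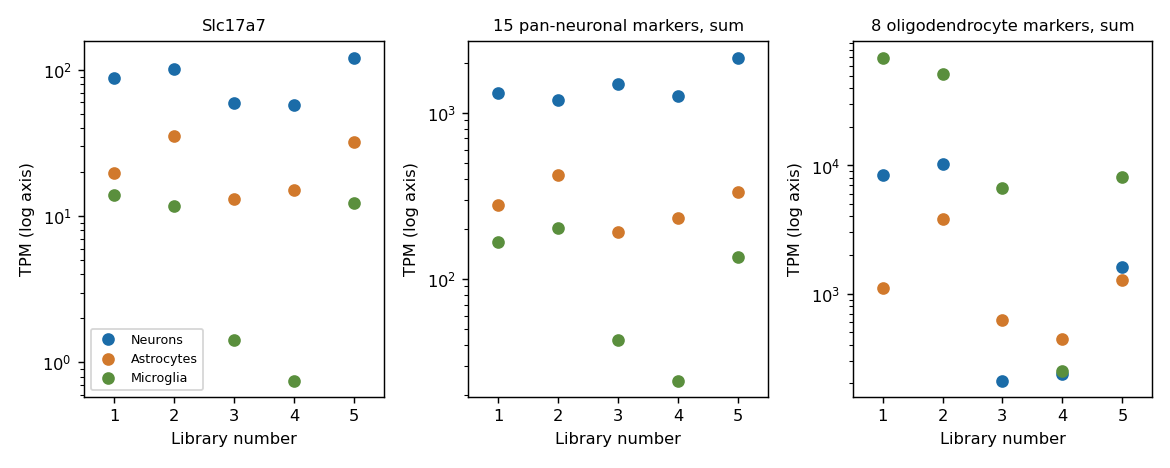
TPM on log axes against library number for Slc17a7, the sum of 15 pan-neuronal markers and the sum of 8 mature oligodendrocyte markers, with 1 point per library and 1 colour per cell type. Slc17a7 is lowest in libraries 3 and 4 of each cell type, and so is the pan-neuronal sum in astrocytes (192.2 and 233.0 TPM) and microglia (43.1 and 24.38 TPM), whereas in neurons that of library 3 (1493 TPM) is above those of libraries 1 and 2.

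Neurod6, a NeuroD-family factor of postmitotic excitatory neurons, had the largest excess in neurons over astrocytes and over microglia of the 8 transcription factors. It stood at 11.04, 7.12, 13.9, 9.67 and 19.4 TPM in neurons, at 0.84, 2.09, 0.55, 0.69 and 1.26 in astrocytes, and at 0.72, 0.46, 0.33, 0.06 and 0.81 in microglia. The lowest neuron library was above every glial library, and the astrocyte and microglia ranges overlapped. Neurons exceeded astrocytes by 2.64 ± 0.24 and microglia by 3.12 ± 0.24. The astrocyte minus microglia difference was 0.48 ± 0.24, and it turned to −0.06 under quantile normalization.

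Its paralog Neurod2, which acts in the same neurons, was far lower. It stood at 1.72, 1.48, 1.97, 1.25 and 2.94 TPM in neurons, at 0.53, 0.72, 0.42, 0.65 and 0.58 in astrocytes, and at 0.2, 0.3, 0.04, 0.02 and 0.23 in microglia. All 3 ranges were separate, in that order. Neurod2 reached 1 TPM only in neuron libraries, so it passed the filter for low values only through the group where it was high. Neurons exceeded astrocytes by 0.84 ± 0.14, and by 1.5 with a pseudocount of 0.1 in place of 1.

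The deep-layer genes Tbr1 and Bcl11b resembled each other in level. Tbr1, a T-box factor of layer 6, stood at 3.2, 3.28, 2.27, 1.41 and 3.66 TPM in neurons, at 0.4, 1.03, 0.94, 0.58 and 0.7 in astrocytes, and at 0.26, 0.38, 0.15, 0.17 and 0.36 in microglia. Bcl11b, the zinc-finger factor CTIP2 of layer 5, stood at 2.83, 2.16, 1.7, 2.33 and 2.76 TPM in neurons, at 1, 0.59, 0.92, 0.86 and 0.9 in astrocytes, and at 0.28, 0.76, 0.09, 0.05 and 0.31 in microglia. Both were higher in every neuron library than in any glial library, and Bcl11b in microglia library 2 lay above astrocyte library 2. Neurons exceeded astrocytes by 1.10 ± 0.17 for Tbr1 and 0.85 ± 0.15 for Bcl11b, and microglia by 1.54 ± 0.17 and 1.38 ± 0.15. The Tbr1 difference between astrocytes and microglia was 0.44 ± 0.17, and −0.09 under quantile normalization.

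Foxp2, a forkhead factor of layer 6 neurons, differed among the astrocyte libraries. It stood at 2.07, 3.66, 6.43, 2.92 and 2.12 TPM in neurons, at 0.77, 0.26, 2.1, 2.15 and 1.79 in astrocytes, and at 0.13, 0.26, 0.23, 0.05 and 0.24 in microglia. Astrocyte libraries 3 to 5 came close to the lowest neuron libraries, astrocyte libraries 1 and 2 were well below them, and the neuron and astrocyte ranges overlapped. Neurons exceeded astrocytes by 0.88 ± 0.26 and microglia by 1.83 ± 0.26.

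Cux2, a homeobox factor of the upper layers, was the member whose neuron level rested most on 1 library. It stood at 8.48, 1.44, 1.32, 3.15 and 1.19 TPM in neurons, at 1.45, 1.27, 0.39, 2.45 and 1.14 in astrocytes, and at 1.59, 0.79, 0.58, 0.51 and 0.69 in microglia. All 3 ranges overlapped, and neuron library 1 was far above the other 4. Neurons exceeded astrocytes by 0.62 ± 0.34, but by 0.25 without neuron library 1, and the astrocyte minus microglia difference of 0.32 ± 0.34 turned to −0.01 and −0.32 under the 2 scalings. In the neuron libraries the range of this upper-layer gene overlapped those of the deep-layer genes Foxp2, Tbr1, Bcl11b and Fezf2.

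Rorb and Fezf2 ran the other way. Rorb, a nuclear receptor of layer 4, stood at 1.24, 1.16, 0.97, 0.92 and 1.59 TPM in neurons, at 14.7, 11.4, 25.6, 17.9 and 19.9 in astrocytes, and at 0.53, 0.6, 0.73, 0.5 and 0.63 in microglia. Fezf2, a zinc-finger factor that specifies layer 5 projection neurons, stood at 1.76, 2.08, 1.03, 1.68 and 2.69 TPM in neurons, at 10.7, 10.1, 14.9, 15.3 and 16.9 in astrocytes, and at 0.81, 0.49, 0.42, 0.21 and 0.66 in microglia. For both genes each astrocyte library was above every neuron library, and each neuron library was above every microglia library.

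The neuron minus astrocyte difference was −3.08 ± 0.18 for Rorb and −2.36 ± 0.19 for Fezf2, and the astrocyte minus microglia difference was 3.52 ± 0.18 and 3.25 ± 0.19. Leaving out any 1 library kept the neuron minus astrocyte difference between −3.22 and −2.95 for Rorb and between −2.46 and −2.24 for Fezf2. The small neuron minus microglia difference of Rorb, 0.44 ± 0.18, turned to −0.25 under quantile normalization. That of Fezf2 was 0.89 ± 0.19, and 0.22 under quantile normalization. Astrocyte library 2 was the lowest astrocyte library for Rorb and Fezf2 and the highest for Neurod6, Neurod2, Tbr1 and Slc17a7. That library also had the highest pan-neuronal sum of the astrocyte libraries, 420.3 TPM, and the lowest astrocyte marker sum, 21350 TPM. Markers of radial glia and neural progenitors summed to 456 ± 107 TPM in neuron libraries, 2201 ± 227 in astrocyte libraries and 83.06 ± 12.01 in microglia libraries. Such a sum does not tell progenitors from astrocytes that express the same genes. Immature neuron markers summed to 206 ± 46.4, 464 ± 68.8 and 46.5 ± 3.47 TPM in the same order. The part of either list in the Rorb and Fezf2 levels was not tested.

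**Figure D2:**
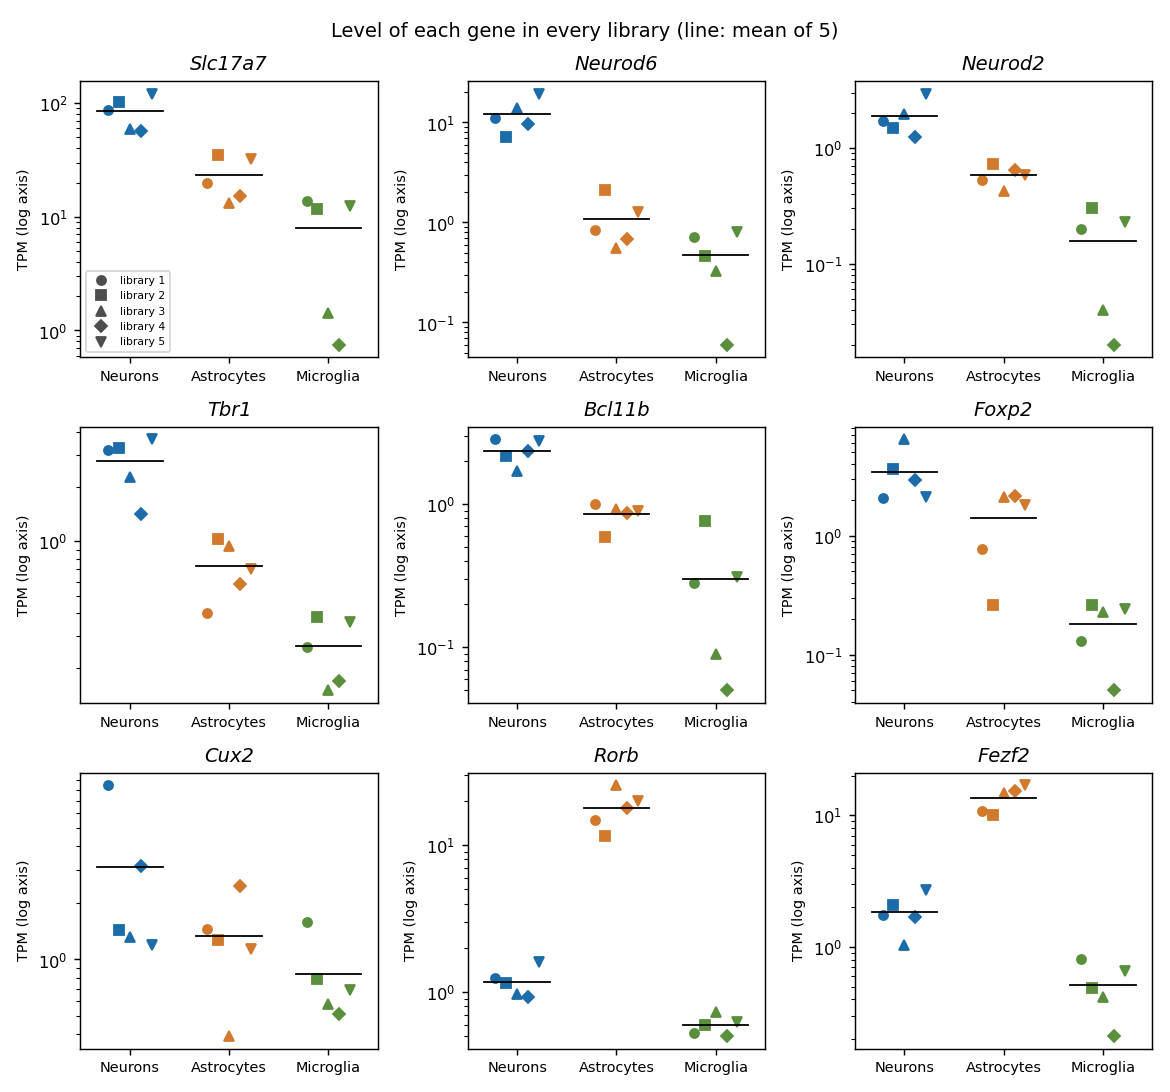
TPM (log axes) of each of the 9 genes in the 15 libraries, with cell types along each horizontal axis, 1 marker shape per library number and a line at the mean of 5. Rorb and Fezf2 are highest in astrocytes (at least 11.4 and 10.1 TPM in every astrocyte library), while Neurod6, Neurod2, Tbr1, Bcl11b and Slc17a7 are highest in neurons.

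**Figure D3:**
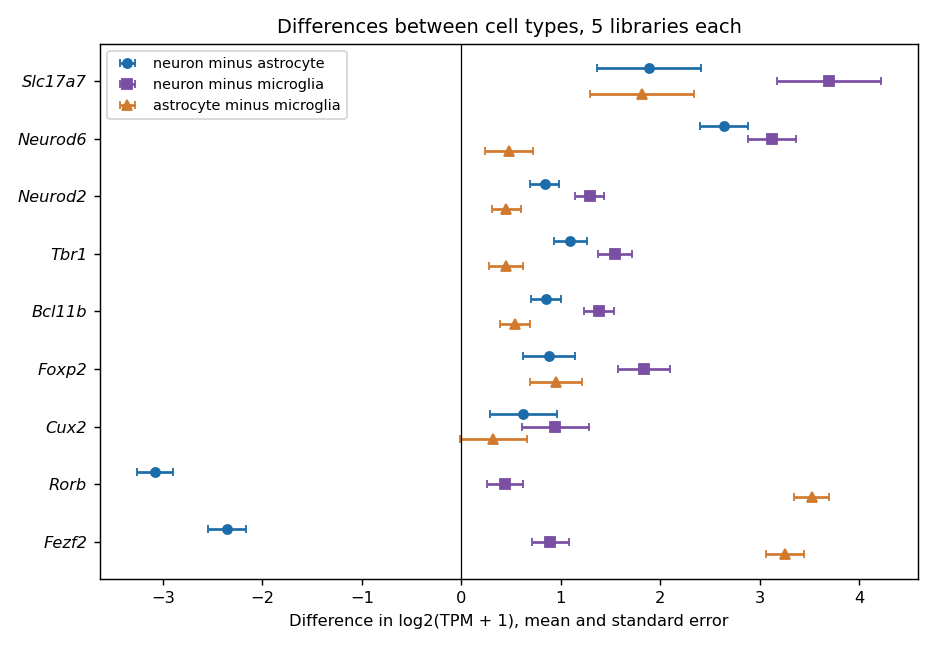
Differences in log2(TPM + 1) between cell types for the 9 genes, 5 libraries each, with the standard error of the limma fit to all 15 libraries, which is the same in the 3 comparisons of a gene. The neuron minus astrocyte difference is below 0 for Rorb (−3.08) and Fezf2 (−2.36) and above 0 for the other 7 genes.

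Set against all genes, the 9 split in both directions between neurons and astrocytes. Of the 9, 5 were higher in neurons without overlap (Neurod6, Neurod2, Tbr1, Bcl11b and Slc17a7), a pattern of 18.8% of tested genes, and 2 were lower without overlap (Rorb and Fezf2), a pattern of 20.2%. By size and adjusted p together, 3 of the 9 (Neurod6, Tbr1 and Slc17a7) passed as higher, against 12.9% of all tested genes, and 2 as lower, against 12.7%, so that 5 passed in either direction, against 25.6%. Between neurons and microglia 8 were higher without overlap, against 42.3% of all. Of the 9, 6 passed as higher, against 29.5%, 0 as lower, against 9.74%, and 6 in either direction, against 39.3%. With quantile normalization 3 of the 9 passed as higher there. Between astrocytes and microglia 4 were higher without overlap (Rorb, Fezf2, Neurod2 and Tbr1), against 45.9%. Of the 9, 3 passed as higher, against 32.3%, 0 as lower, against 10.2%, and 3 in either direction, against 42.5%, and under either scaling 2 passed as higher. With a pseudocount of 0.1 the numbers that passed as higher were 6 between neurons and astrocytes, 8 between neurons and microglia and 8 between astrocytes and microglia. Nothing is read from these counts, since the genes were chosen on these levels.

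All 9 genes passed the filter of at least 1 TPM in at least 5 libraries. Like Neurod2, the genes Neurod6, Tbr1, Bcl11b and Foxp2 would not have passed without the neuron libraries, where they were high. Rorb would not have passed without the astrocyte libraries, where it was high. Their median difference was 0.85 for neurons minus astrocytes, 1.38 for neurons minus microglia and 0.54 for astrocytes minus microglia, beside −0.03, 0.48 and 0.57 over all tested genes. Under median-of-ratios and quantile scaling the medians of the 9 were 0.84 and 0.79, 1.17 and 0.84, and 0.32 and 0.08 for the same comparisons, and with a pseudocount of 0.1 they were 1.39, 2.95 and 1.54. The 3 comparisons share libraries and are not independent of each other. Of the genes called between neurons and microglia 75.2% were higher in neurons, against 55.8% and 55.6% under median-of-ratios and quantile scaling, which moved the all-gene median to −0.02 and 0.03. Of those called between astrocytes and microglia 76% were higher in astrocytes, against 53.4% and 54.7%, with medians of 0.02 and 0.05.

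The order of levels differed between cell types. In neurons Slc17a7 was above Neurod6 without overlap, and Neurod6 above every other gene without overlap except Cux2, whose library 1 (8.48 TPM) exceeded Neurod6 in library 2 (7.12 TPM). By mean the other 7 followed as Foxp2, Cux2, Tbr1, Bcl11b, Neurod2, Fezf2 and Rorb, each overlapping its neighbour. In astrocytes Slc17a7, Rorb and Fezf2 came first with overlapping neighbours, and Fezf2 was separate from Foxp2, the next. In microglia all neighbours overlapped. The 8 transcription factors together summed to 28.8 ± 5.96 TPM in neuron libraries, 37.5 ± 8.07 in astrocyte libraries and 3.33 ± 1.22 in microglia libraries.

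Each level was also divided by the pan-neuronal marker sum of the same library. That sum averaged 1481 TPM in neuron, 291 in astrocyte and 114 in microglia libraries. A gene whose level falls less than this divisor between cell types has a higher ratio in glial libraries. A ratio that is lowest in neurons is therefore not by itself a lower level there. Slc17a7 per 1000 TPM of pan-neuronal markers was 58.9 ± 18.2 in neurons, 77.4 ± 13.3 in astrocytes and 59.3 ± 27.8 in microglia, and the ranges overlapped. Neurod2 was at 1.25 ± 0.15 in neurons, 2.07 ± 0.44 in astrocytes and 1.23 ± 0.37 in microglia, so that it was above the neuron range in all astrocyte libraries. Neurod6 was at 8.08 ± 1.32 in neurons, 3.53 ± 0.89 in astrocytes and 4.54 ± 2.30 in microglia, with every neuron library above every astrocyte library.

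On the same scale Rorb was at 0.81 ± 0.14 in neurons, 70.0 ± 39.5 in astrocytes and 9.65 ± 8.41 in microglia, and Fezf2 at 1.27 ± 0.38, 51.4 ± 21.2 and 6.10 ± 3.01 in the same order of cell types. For both genes the 3 ranges were separate, with neurons the lowest. Before the division every neuron library was above every microglia library, so the order of those groups comes from the smaller divisor in microglia. Tbr1, Bcl11b, Foxp2 and Cux2 overlapped between neurons and astrocytes.

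**Figure D4:**
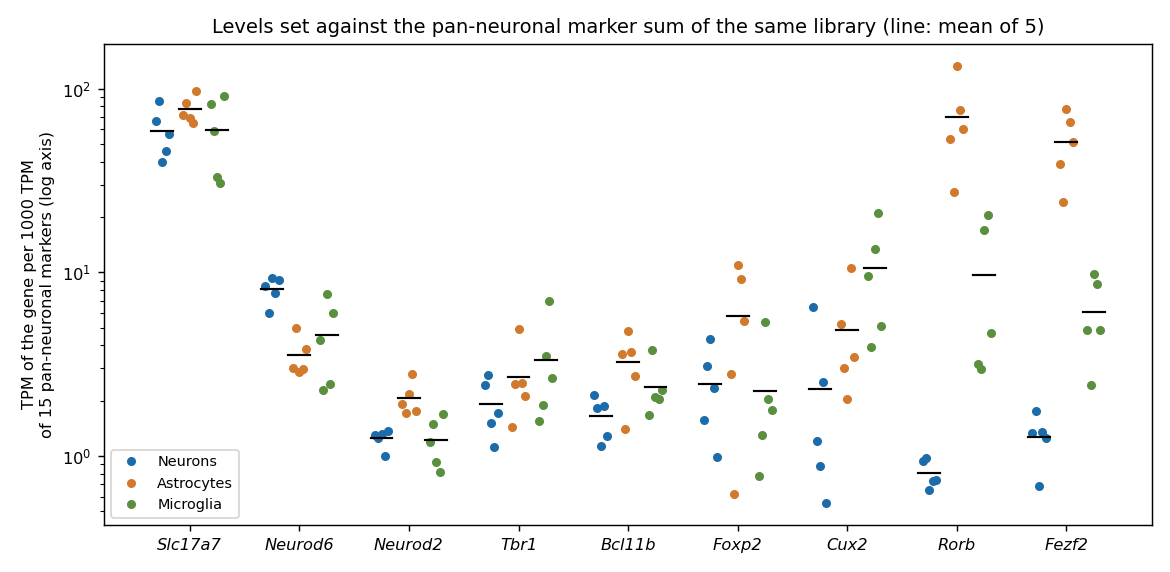
TPM of each gene per 1000 TPM of 15 pan-neuronal markers of the same library (log axis), with 1 point per library, 1 colour per cell type and a line at the mean of 5. Slc17a7 lies at a like ratio in all cell types (means of 58.9, 77.4 and 59.3 in neurons, astrocytes and microglia), whereas Rorb and Fezf2 are at 70.0 and 51.4 in astrocytes and at 0.81 and 1.27 in neurons.

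For each gene the tested genes with the most similar profile were listed by Pearson's r of log2(TPM + 1) over the 15 libraries, which fall into 3 cell types, so that r mostly reflects the cell type means. The nearest genes to Rorb were Elovl2, a fatty acid elongase, Rgs20, a regulator of G-protein signalling, and Otx1, a homeobox factor (r = 0.997 for each). Those to Fezf2 were Mxi1 (0.995), Chst2 (0.994) and Wnt7b, a secreted Wnt ligand (0.992), and Rorb and Fezf2 themselves had r = 0.979. Slc17a7 was nearest to Camkv and Sult4a1 (0.996 each) and Itpka (0.991). Neurod6 was nearest to Stmn2, a microtubule regulator of neurons (0.991), Nptx1 and Pgm2l1 (0.989 each), and Neurod2 to the glutamate receptor Grm2 (0.994), the GABA receptor subunit Gabra5 (0.982) and the synaptic zinc transporter Slc30a3 (0.98). Likeness was weaker for Tbr1 (Gabra5, 0.962, Chd3, 0.959, and Prcd, 0.958), Bcl11b (Shc2, 0.972, Jcad, 0.971, and Rab3c, 0.97) and Foxp2 (Syt15, 0.965, Pcsk5, 0.964, and Hmcn1, 0.96). It was weakest for Cux2, with Morc4 (0.825), D17H6S53E (0.813) and Stk32a (0.765).

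The closest relatives of the 9 genes were read next. Of 13 paralogs 5 passed the filter, and between neurons and astrocytes 2 were called higher and 2 lower, beside 12.9% and 12.7% of all tested genes, with a median difference of −0.21. Rora, the nuclear receptor most like Rorb, averaged 20.01 ± 1.82 TPM in neuron libraries, 46.1 ± 9.62 in astrocyte libraries and 4.33 ± 0.60 in microglia libraries, and it was lower in neurons than in astrocytes by 1.14 on the log2 scale (limma, Benjamini-Hochberg adjusted p = 4.98e-06, here and below). Bcl11a, the paralog of Bcl11b, averaged 10.8 ± 2.66 TPM in neuron libraries, 2.85 ± 0.26 in astrocyte libraries and 1.24 ± 0.79 in microglia libraries, higher in neurons than in astrocytes by 1.59 (adjusted p = 1.25e-05). Foxp1, the paralog of Foxp2, averaged 67.5 ± 12.3 TPM in neuron libraries, 17.1 ± 3.08 in astrocyte libraries and 21.0 ± 5.25 in microglia libraries, higher in neurons than in astrocytes by 1.92 (adjusted p = 1.22e-07).

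Cux1, the paralog of Cux2, averaged 14.3 ± 0.90 TPM in neuron libraries, 17.0 ± 3.64 in astrocyte libraries and 18.3 ± 2.39 in microglia libraries, with a neuron minus astrocyte difference of −0.21 (adjusted p = 0.263). The median paralog difference was 1.66 for neurons minus microglia and 0.86 for astrocytes minus microglia. Between neurons and microglia Bcl11a, Foxp1 and Rora were called higher in neurons (2.45, 1.66 and 1.98, with adjusted p of 3.08e-08, 3.50e-07 and 2.29e-09). These are 3 of the 5 tested, beside 29.5% of all genes. Between astrocytes and microglia 2 of the 5 were called higher in astrocytes, among them Rora (3.13, adjusted p = 3.35e-12), beside 32.3% of all genes. Fezf1, Neurod1, Neurod4, Eomes, Tbx21, Foxp4, Slc17a6 and Slc17a8 did not pass the filter. Slc17a6, which encodes the transporter VGLUT2, stood at 1.42, 0.84, 2.24, 0.93 and 2.89 TPM in the neuron libraries.

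The lists of other genes were, like the 9, drawn up with results of these libraries known, so their counts and medians are given as a description beside those of all tested genes. The adjusted p-values of genes named from the lists, paralogs included, are adjusted over all tested genes and do not allow for that choice. Of 25 other transcription factors of cortical excitatory neurons and layers, 24 were tested, and between neurons and astrocytes 5 were higher and 8 lower, beside 12.9% and 12.7% of all genes, with a median difference of −0.20. Lhx2, a LIM homeobox factor of the cortex, averaged 4.90 ± 2.99 TPM in neuron libraries and 61.9 ± 15.6 in astrocyte libraries (difference −3.49, adjusted p = 5.04e-09). Id2, an inhibitor of basic helix-loop-helix factors, averaged 208 ± 58.3 TPM in neuron libraries and 1879 ± 119 in astrocyte libraries (−3.22, adjusted p = 1.75e-10). Otx1, a homeobox factor of deep layers, averaged 0.35 ± 0.13 TPM in neuron libraries and 10.4 ± 2.47 in astrocyte libraries (−3.06), and it passed the filter only through the astrocyte libraries, where it was high. The 5 called higher in neurons were Mef2c (2.69), Myt1l (2.44), Lmo3 (1.74), Tshz2 (1.48) and Nr4a2 (1.45).

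Against microglia 12 of these factors were higher and 1 lower in neurons, beside 29.5% and 9.74% of all genes, with a median of 1.14, and the largest differences were in Myt1l (3.87), Lmo3 (3.36) and Nfib (3.18). The lower one was Mef2c, an activity-regulated factor that microglia also express, averaging 156 ± 41.3 TPM in neuron libraries and 337 ± 98.3 in microglia libraries (−1.10, adjusted p = 0.000259). Its call ended without neuron library 2 (−0.92) or microglia library 4 (−0.97), where the difference no longer reached 1. Under median-of-ratios and quantile scaling 11 and 9 of these factors were higher, with medians of 0.88 and 0.53. Under either scaling 2 were lower, Mef2c and Rreb1. Between astrocytes and microglia 16 were higher in astrocytes, beside 32.3% of all genes, and 1, Mef2c, was lower (−3.79), beside 10.2%. The median was 1.69, and Lhx2 (4.84) and Sox5 (3.74) were the largest among the higher ones. Under the same scalings 14 and 13 were higher in astrocytes and 2, Mef2c and Rreb1, were lower, with medians of 1.11 and 1.19.

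Effector genes of glutamatergic and layer-specific neurons were counted in the same way. Of 27, 25 were tested, and between neurons and astrocytes 14 were higher and 1 lower, beside 12.9% and 12.7% of all genes, with a median of 1.22. Lamp5, a membrane protein of upper-layer and some inhibitory neurons, averaged 42.9 ± 17.6 TPM in neuron libraries and 3.47 ± 1.63 in astrocyte libraries (3.28, adjusted p = 8.99e-07), and the kinase gene Ptk2b at 21.0 ± 7.41 and 1.68 ± 0.51 (2.99, adjusted p = 7.63e-09). The gene that fell was Crym, a thyroid hormone binding protein of layer 5 neurons, averaging 33.8 ± 10.8 TPM in neuron libraries and 271 ± 67.2 in astrocyte libraries (−2.98, adjusted p = 1.87e-08). Against microglia 21 were higher and 1 lower in neurons, beside 29.5% and 9.74% of all genes, with a median of 2.49. The higher ones were led by Lamp5 (4.23), Nrgn (4.16) and Chn1 (3.73), and Whrn was lower (−2.12). Under median-of-ratios and quantile scaling 18 and 16 were higher. Between astrocytes and microglia 14 were higher and 2 lower in astrocytes, beside 32.3% and 10.2% of all genes, or 8 and 2 under either scaling. The median was 1.13 (0.8 and 0.48 under the scalings), with Crym (5.16) and Chn1 (2.91) among the higher and Ptk2b (−2.90) and Whrn (−1.92) lower.

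Genes of inhibitory neurons were set beside these, since the neuron libraries could hold both classes. Of 18, 10 were tested, and between neurons and astrocytes 7 were higher and 0 lower, beside 12.9% and 12.7% of all genes, with a median of 2.25. The peptide gene Sst averaged 156 ± 119 TPM in neuron libraries and 13.5 ± 7.14 in astrocyte libraries (3.43, adjusted p = 0.000106), Vip at 15.4 ± 9.24 and 0.77 ± 0.36 (3.06), and Dlx5, a homeobox factor of inhibitory lineages, at 8.07 ± 1.49 and 0.21 ± 0.16 (2.90). Vip and Dlx5 passed the filter only through the neuron libraries, where they were high. Against microglia 9 were higher and 1 lower in neurons, beside 29.5% and 9.74% of all genes, or 8 and 1 under either scaling. The lower one was Maf (−4.00), a factor that macrophages also express, and the median was 3.11. Between astrocytes and microglia 4 were higher and 1 lower in astrocytes, a share near the 32.3% and 10.2% of all genes, with a median of 0.77 (0.42 and 0.24 under the 2 scalings), and with Dlx2 (1.66) among the higher and Maf (−3.52) lower. In the neuron libraries Dlx5 (5.72 to 9.84 TPM) was above every value of Neurod2, Tbr1, Bcl11b, Fezf2 and Rorb. It overlapped Neurod6 (7.12 to 19.4 TPM), Foxp2 and Cux2 and was below every value of Slc17a7 (57.5 to 122 TPM). By neuron mean the tested inhibitory genes ran from Maf (0.65 TPM) to Sst (156 TPM).

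**Figure D5:**
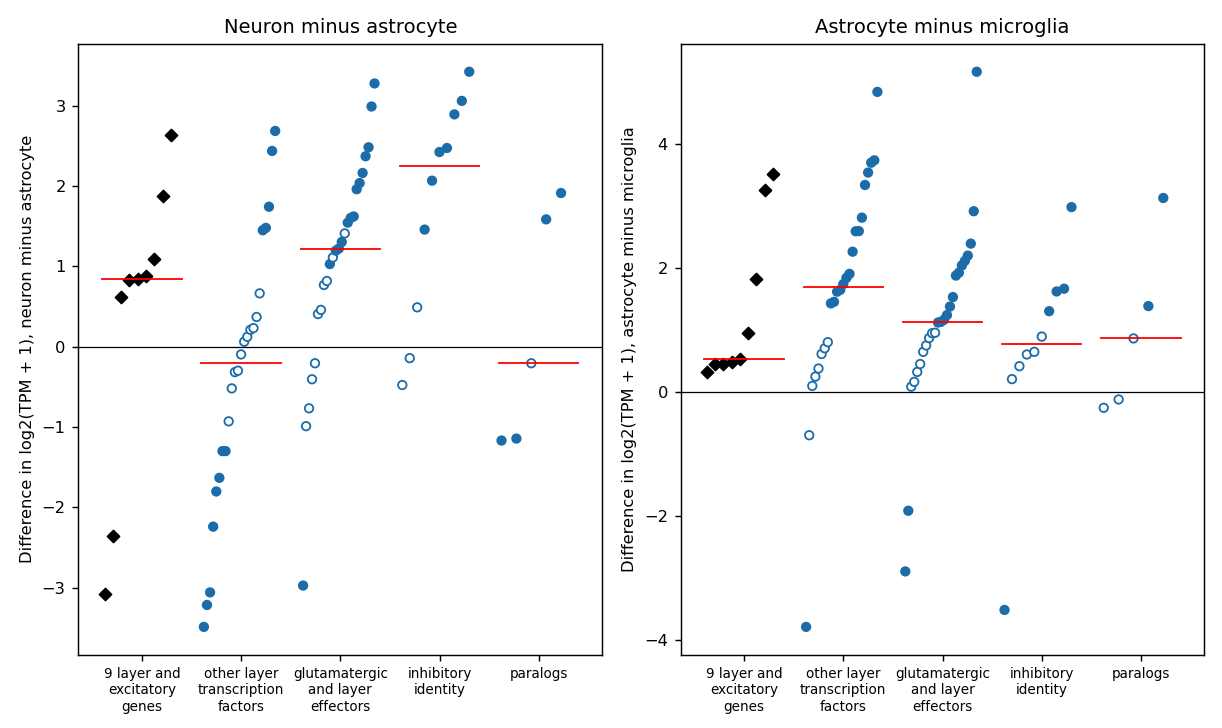
Neuron minus astrocyte (left) and astrocyte minus microglia (right) differences in log2(TPM + 1) for the 9 genes (black diamonds, no test) and for tested genes of 4 lists (circles, filled where called), with a red line at each median. Other layer transcription factors spread on both sides of 0 between neurons and astrocytes (median −0.20), and the medians of the effector and inhibitory genes are 1.22 and 2.25.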

How the data were processed

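TPM per gene were deposited by the authors for 15 libraries. The submitters' processing notes list DESeq2 1.36.0, RSEM 1.2.28, STAR 2.7.1a and Trim Galore 0.6.4 and the build mm10, with no role for any. TPM keep no read depth, so depth per library is unknown, and a level can move because other genes of the library do. All columns were mapped to samples by name.

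Values were taken as log2(TPM + 1). The 13351 genes that reached 1 TPM in 5 or more libraries were fitted in limma 3.58.1 (R 4.3.3) with a mean per cell type and a variance trend, and called at a Benjamini-Hochberg adjusted p below 0.05 with a log2 difference of at least 1. Descriptions and plots used Python 3.11.15, numpy 2.4.6, pandas 2.3.3 and matplotlib 3.10.9. The fit was tried on simulated data with independent noise and with differences added only to genes of higher mean level. That trial did not cover differences of genes near 1 TPM or effects shared by same-numbered libraries. The 9 genes, the 4 gene lists and the marker lists were chosen with earlier results of these data known. Named from the lists were all paralogs and, per other list and comparison, up to 3 called genes with the largest difference and no overlap, plus those called against the majority. Some genes that this rule names are not reported here. For each of the 9 genes, the 3 genes with the highest correlation were named.

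Library numbers are shared between cell types. Deviations from the cell type means of same-numbered libraries correlated at 0.216 to 0.382 between neurons and microglia (5 of 5 numbers above 0.1), at −0.0329 to 0.233 between neurons and astrocytes (3 of 5) and at −0.011 to 0.249 between astrocytes and microglia (3 of 5). By the rule that every pair exceeds 0.1, only neurons and microglia counted as paired. That rule does not show that astrocyte libraries are unpaired. Their correlations for numbers 2, 3 and 4 were 0.189, 0.233 and 0.197 with neurons and 0.248, 0.249 and 0.183 with microglia. Alternatives were a pseudocount of 0.1, no filter or one of 5 TPM, 2 scalings, fits of 2 cell types, no variance trend, the replicate block and left-out libraries. Promoters are RefSeq's, matched for 8 of the 9 genes, all but Foxp2.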

Additional observations from a re-analysis of the deposited data

Results flagged for a closer look

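In 111 groups of 5 libraries, 5 held a library far from the others by Dixon's test at the 95% level, about the 1 in 20 that chance gives. Cux2 stood at 8.48 TPM in neuron library 1, with the other neuron libraries at 1.19 to 3.15, and at 1.59 TPM in microglia library 1, with the others at 0.51 to 0.79. Lhx2 stood at 10.19 TPM in neuron library 5, with the others at 3.08 to 4.32. Sst stood at 366.88 TPM in neuron library 5, with the others at 91.0 to 128. Dlx5 was at 0.0 TPM in microglia library 4, with the others at 0.05 to 0.07, all near the lower end of the scale.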

How the results depend on the processing

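Leaving out 1 library at a time kept the sign of all 27 differences of the 9 genes. A move as large as the spread between libraries was not possible there, since dropping 1 of 5 libraries cannot shift a mean that far. The neuron minus microglia differences of Cux2 and Fezf2 (0.94 and 0.89 with all) reached up to 1.105 and 1.01. Those of Foxp2 reached up to 1.16 between astrocytes and microglia (0.95 with all) and 1.001 between neurons and astrocytes (0.88 with all). The lowest and highest counts of called genes without 1 library were 3323 and 3512 for neurons against astrocytes (3412 with all), 5103 and 5410 for neurons against microglia (5245) and 5522 and 5841 for astrocytes against microglia (5672). Nrgn lost its neuron against astrocyte call without astrocyte library 3 or 4 (limma adjusted p = 0.0648 and 0.0524). With the replicate block, the pairing by library number, the comparisons gave 1743 higher and 1690 lower, 3948 and 1308, and 4330 and 1364 genes, and it changed none of the counts of the 9 genes. Differences of the 9 genes moved by more than that spread in 20 of 27 with a pseudocount of 0.1, in 14 with quantile normalization and in 3 with median-of-ratios scaling. Quantile normalization took the neuron minus microglia differences of Bcl11b (0.84), Neurod2 (0.81) and Tbr1 (0.94) below 1, and leaving out libraries numbered 1 and 2 took the Tbr1 neuron minus astrocyte difference to 0.94. Of the lists, called paralogs between neurons and microglia became 5 with no filter (3 in the report), and between astrocytes and microglia 1 with the 5 TPM filter and 1 with quantile normalization (2 in the report). Called effector genes became 14 between neurons and microglia with the 5 TPM filter (22 in the report), and 10 between astrocytes and microglia under either scaling (16 in the report). The causes were not tested, apart from the filters, which change how many genes are tested. The filter of 5 TPM left only 4 of the 9 genes. The unknown depth of each single library, the absence of animal labels and endothelial, mural and oligodendrocyte markers in the neuron libraries limit all levels given.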
